A study of Mus musculus with 14 samples.

Results

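The genes described here are 10 macrophage genes for complement and for scavenger, pattern and surface receptors: C1qa, C1qb, C1qc, Mrc1, Marco, Timd4, Vsig4, Cd14, Cd68 and Adgre1. They were taken by symbol, so that every probe set whose platform symbol is 1 of these names was included, whatever its values. This gave 13 probe sets of the 45101 on the array, with 3 for C1qb, 2 for Marco and 1 for each other gene, and 10 of 18194 genes in all. Mouse embryos were bled at E12.5, RNA was made from pools of 8 to 10 embryos that shared a genotype, and 14 Affymetrix mouse arrays were run. The first cross, of Cbfb-MYH11 chimeras with C57/Bl6 females, gave Cbfb+/MYH11 embryos (4 arrays), which carry the fusion gene in place of 1 Cbfb allele, and WT littermates (4 arrays). The second cross, between Cbfb+/- parents, gave Cbfb-/- embryos (3 arrays), which lack Cbfb, and Cbfb+/+ littermates (3 arrays). All embryos carry their genotype in every tissue, so a change in blood need not arise within the blood cells, and the labels name no treatment.

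The C1q genes encode the 3 chains of C1q, the recognition protein of the classical complement pathway, which binds antibody complexes, dying cells and microbes. Tissue macrophages are a main source of C1q, and scavenger receptors let the same cells take up debris, modified lipoproteins and apoptotic cells. Macrophages of the mid-gestation mouse embryo come largely from yolk sac and fetal liver progenitors, and they clear the nuclei that maturing red cells expel. Cbfb is the shared partner of the Runx transcription factors, and the Cbfb-MYH11 fusion, found in a human acute myeloid leukaemia, interferes with that partnership. Most RNA of blood at this stage is erythroid, so macrophage transcripts come from a small share of the cells.

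Values are log2 RMA values, and each mutant is compared with its own littermates. A probe set was called changed at a Benjamini-Hochberg adjusted p under 0.05 and at least a 1.5-fold change, in limma fitted over all 34958 probe sets with 1 symbol, without a filter on level. Arrays of 1 group are technical replicates by their labels, and the p-values below therefore rest on array spread that need not include the spread between pools or embryos. On WT arrays 1 and 2 most members were higher than on WT arrays 3 and 4, and over all genes too the arrays of this cross fell into these pairs, which the labels do not name. Changes within each pair are therefore given. Values under a log2 value of 6 may be background, so a fold that involves them describes the measured values and is no bound on the change in transcript, and folds of different probe sets are not ranked. Where both groups lie under 6, both sides may be background. This holds for Cd68 on every array, and for all C1q probe sets on arrays 3 and 4 of the first cross. In pooled blood, fewer cells of a type and less RNA per cell cannot be told apart.

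Upstream sequence is shown for 3 of the genes that were lower in both mutants, because the study altered the partner of a transcription factor family. For each gene, 250 bases before the annotated start are given 5′ to 3′ on the gene's strand, from RefSeq (GRCm38.p6). Capitals mark TGTGGT or TGCGGT, core letters of Runx sites, and GAGGAA, core letters of PU.1 sites, on either strand, so that TTCCTC is a match to GAGGAA on the opposite strand. The window of C1qb is chr4:136886201-136886450 on the minus strand, that of C1qc is chr4:136892915-136893164 on the minus strand, and that of Mrc1 is chr2:14229164-14229413 on the plus strand.
C1qb: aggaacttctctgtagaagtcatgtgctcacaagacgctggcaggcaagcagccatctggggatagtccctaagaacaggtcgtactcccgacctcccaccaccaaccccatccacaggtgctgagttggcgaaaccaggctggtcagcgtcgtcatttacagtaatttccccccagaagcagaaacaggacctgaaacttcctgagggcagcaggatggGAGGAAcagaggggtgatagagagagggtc
C1qc: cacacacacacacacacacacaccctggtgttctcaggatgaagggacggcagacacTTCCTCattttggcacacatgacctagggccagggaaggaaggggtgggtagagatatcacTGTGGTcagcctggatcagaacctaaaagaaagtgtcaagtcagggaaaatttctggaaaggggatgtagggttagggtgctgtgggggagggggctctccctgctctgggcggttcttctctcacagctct
Mrc1: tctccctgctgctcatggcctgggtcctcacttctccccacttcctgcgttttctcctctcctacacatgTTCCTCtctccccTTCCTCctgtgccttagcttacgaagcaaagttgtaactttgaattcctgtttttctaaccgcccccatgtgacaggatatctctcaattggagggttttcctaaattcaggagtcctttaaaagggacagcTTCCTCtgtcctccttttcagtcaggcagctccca
C1qc was the only 1 of 7 members with a window to hold a Runx core, at 132 bases before its start, and it held a PU.1 core at 193 bases. C1qb held a PU.1 core at 30 bases and Mrc1 held 3, at 180, 167 and 35 bases. A PU.1 core was found in 6 of the 7 windows. Over 32851 promoter windows of this length, 18.6% held a Runx core and 23.3% a PU.1 core. A match is a description of letters and not a site of binding.

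Of the 13 probe sets, 7 fell in Cbfb+/MYH11 blood and 7 in Cbfb-/- blood, and 6 fell in both: those of C1qa, C1qb (3), C1qc and Mrc1. None rose in either mutant. Of all 34958 probe sets, 3.35% were called lower with the fusion, 3.42% without Cbfb and 0.881% in both. The median change of the members' probe sets was -0.89 in Cbfb+/MYH11 and -1.03 in Cbfb-/-, where the median of all probe sets was -0.09 and -0.05. Counted by gene, 5 of 10 members fell in each mutant, the fifth being Adgre1 with the fusion and Cd68 without Cbfb. All Cbfb+/MYH11 arrays lay below all WT arrays for 7 of the 13 probe sets, which holds for 12.4% of all probe sets. All Cbfb-/- arrays lay below all Cbfb+/+ arrays for 10 of 13, against 20.7% of all probe sets. These counts describe genes chosen with earlier results of the same arrays known.

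**Figure D1:**
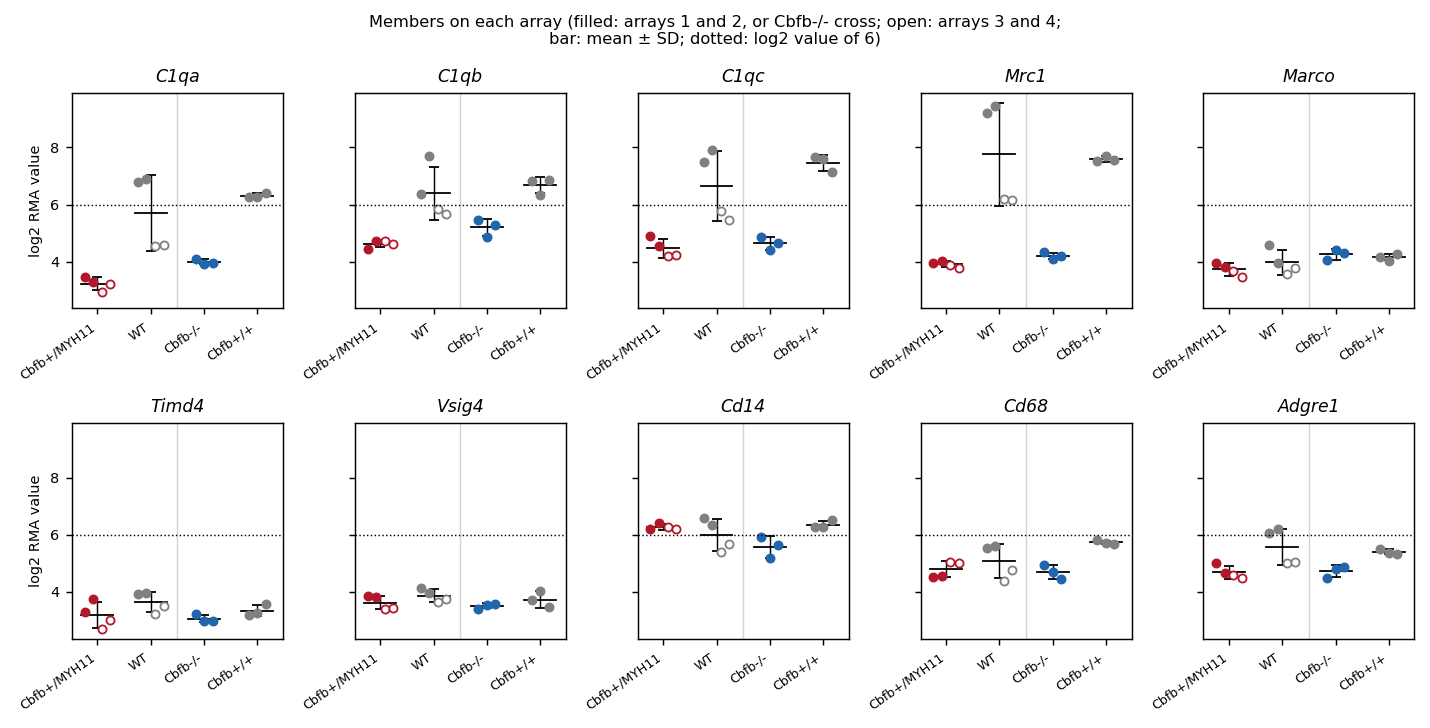
Log2 RMA value of each member (for C1qb and Marco the probe set with the highest mean) on every array, with mutants left of their littermates. Filled points of the first cross are arrays 1 and 2 and open points arrays 3 and 4; bars are means ± SD and the dotted line is a log2 value of 6. The 3 C1q genes and Mrc1 are low on all mutant arrays, and their WT values split by array pair.

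C1qa, the A chain of C1q, had log2 values of 3.47, 3.29, 2.94 and 3.23 on the Cbfb+/MYH11 arrays, against 6.79, 6.90, 4.55 and 4.59 on the WT arrays. The groups did not overlap, and WT arrays 1 and 2 stood well above WT arrays 3 and 4. C1qa fell 5.57-fold in Cbfb+/MYH11 (95% interval 2.91 to 10.7; limma over all probe sets, adjusted p = 0.000709). In Cbfb-/- blood the values were 4.09, 3.92 and 3.97, against 6.28, 6.26 and 6.40 in Cbfb+/+ blood. Here the arrays of each genotype lay close together and the groups were far apart. The fall was 5-fold (95% interval 2.36 to 10.6; adjusted p = 0.00734).

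C1qb, the B chain, was read by 3 probe sets, all of them lower in both mutants. The set 1417063_at gave 3.81, 3.91, 3.89 and 4.23 in Cbfb+/MYH11, against 7.69, 7.91, 5.17 and 5.05 in WT. It gave 4.93, 4.70 and 4.83 in Cbfb-/-, against 7.44, 7.41 and 7.47 in Cbfb+/+. No mutant array reached its littermates, and only in WT did the arrays of a genotype differ widely. The fall was 5.63-fold with the fusion (adjusted p = 0.00218) and 6.13-fold without Cbfb (adjusted p = 0.00899). The set 1437726_x_at averaged 3.00 ± 0.15 in Cbfb+/MYH11 and 5.85 ± 1.22 in WT (SD, n = 4 each, limma adjusted p = 0.000183). In the other cross it averaged 3.39 ± 0.24 in Cbfb-/- and 6.44 ± 0.43 in Cbfb+/+ (SD, n = 3 each, limma adjusted p = 0.00122). The set 1434366_x_at, which had the highest mean, gave the smallest falls of the 3, at 3.4-fold in Cbfb+/MYH11 (adjusted p = 0.00106) and 2.77-fold in Cbfb-/- (adjusted p = 0.0172). The suffix of the last 2 sets marks probes that may match other transcripts.

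C1qc, the C chain, gave 4.90, 4.54, 4.19 and 4.24 in Cbfb+/MYH11, against 7.49, 7.91, 5.76 and 5.47 in WT. Every WT array was higher than every Cbfb+/MYH11 array, and the gap was narrower for WT arrays 3 and 4. The fall was 4.55-fold (95% interval 2.42 to 8.56; adjusted p = 0.00149). In Cbfb-/- it was at 4.85, 4.42 and 4.65, against 7.67, 7.58 and 7.14 in Cbfb+/+. That fall was 7.09-fold (95% interval 3.42 to 14.7; adjusted p = 0.002). The 3 C1q genes are neighbours on chromosome 4 (RefSeq, GRCm38.p6), and they fell together in both mutants.

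Among the scavenger receptors, Mrc1, the mannose receptor CD206, fell in both mutants. It was at 3.97, 4.01, 3.88 and 3.77 in Cbfb+/MYH11, against 9.21, 9.43, 6.19 and 6.17 in WT. The mutant values lay within a narrow band, while WT arrays 1 and 2 exceeded WT arrays 3 and 4 by 3.14 log2 units. The fall was 14.3-fold (95% interval 5.95 to 34.6; adjusted p = 0.000244). In Cbfb-/- blood Mrc1 was at 4.33, 4.10 and 4.19, against 7.53, 7.70 and 7.54 in Cbfb+/+. That fall was 10.5-fold (95% interval 3.79 to 28.8; adjusted p = 0.00484).

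The other receptors for uptake stayed below 6 on every array of every group. Marco, a class A scavenger receptor of tissue macrophages, was between 3.46 and 3.97 in Cbfb+/MYH11 and between 3.59 and 4.60 in WT (probe set 1449498_at). It was between 4.05 and 4.42 in Cbfb-/- and between 4.04 and 4.27 in Cbfb+/+. Its second set, 1458297_s_at, lay between 3.33 and 4.05 over both mutants and between 3.71 and 4.02 over both littermate groups. Timd4, a phosphatidylserine receptor for apoptotic cells, averaged 3.20 ± 0.45 in Cbfb+/MYH11 and 3.65 ± 0.35 in WT (SD, n = 4 each), and 3.07 ± 0.13 in Cbfb-/- and 3.35 ± 0.19 in Cbfb+/+ (SD, n = 3 each). Vsig4, a receptor for complement C3 fragments on resident macrophages, averaged 3.63 ± 0.23 in Cbfb+/MYH11 and 3.87 ± 0.22 in WT, and 3.51 ± 0.09 in Cbfb-/- and 3.74 ± 0.28 in Cbfb+/+. None of these 4 probe sets was called in either mutant (limma, adjusted p = 0.111 to 0.784). At such values the array does not show whether these genes are expressed in littermate blood, so a fall would not have been detectable.

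Cd14, the co-receptor that hands bacterial lipopolysaccharide to Tlr4, behaved unlike the C1q genes. It was at 6.21, 6.40, 6.26 and 6.21 in Cbfb+/MYH11, against 6.58, 6.34, 5.38 and 5.69 in WT. The mutant values lay within the WT range, and no change was called (0.27 on the log2 scale, adjusted p = 0.367). In Cbfb-/- it was at 5.92, 5.17 and 5.63, against 6.26, 6.28 and 6.50 in Cbfb+/+. These groups did not overlap, but the change of -0.77 did not pass over all probe sets (adjusted p = 0.0523), and it passed over the 7393 genes past the filter (adjusted p = 0.0325) and with the replicate block (adjusted p = 0.0245 over genes). Over genes the call was lost in 5 of the 14 fits without 1 array, those without Cbfb-/- array 2 or 3 or any 1 Cbfb+/+ array (adjusted p up to 0.126, with -0.57, without Cbfb-/- array 2).

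Cd68, a glycoprotein of macrophage endosomes and lysosomes, was at 4.53, 4.56, 5.05 and 5.03 in Cbfb+/MYH11, against 5.52, 5.61, 4.40 and 4.76 in WT. The groups overlapped and no change was called (-0.28, adjusted p = 0.367). It was at 4.93, 4.70 and 4.46 in Cbfb-/-, against 5.80, 5.70 and 5.69 in Cbfb+/+, a called fall of 2.04-fold (95% interval 1.37 to 3.05; adjusted p = 0.0181). That call was lost when any array of this cross but Cbfb-/- array 1 was left out (adjusted p up to 0.073). Adgre1, which encodes an adhesion receptor long used as the surface antigen of mouse macrophages, was at 5.01, 4.65, 4.61 and 4.49 in Cbfb+/MYH11, against 6.05, 6.20, 5.02 and 5.05 in WT. Its highest mutant array lay just under the lowest WT array, and the fall of 1.86-fold was called (95% interval 1.31 to 2.63; adjusted p = 0.0112). In Cbfb-/- it was at 4.49, 4.80 and 4.88, against 5.51, 5.36 and 5.34 in Cbfb+/+. The groups were again apart, but the change of -0.68 was not called (adjusted p = 0.102), and it was called with the replicate block (adjusted p = 0.0343).

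**Figure D2:**
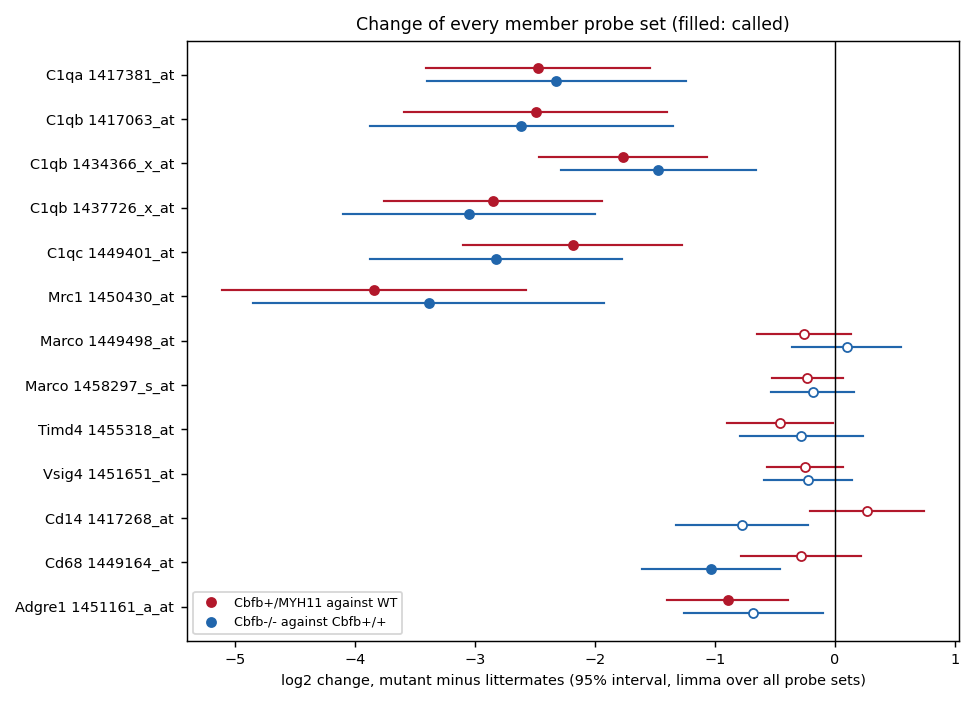
Log2 change of each of the 13 member probe sets (rows) with its 95% interval, in Cbfb+/MYH11 against WT (red) and in Cbfb-/- against Cbfb+/+ (blue). Filled points were called; the 5 C1q probe sets and that of Mrc1 are filled in both mutants, Adgre1 only in red and Cd68 only in blue.

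Within the array pairs of the first cross the C1q genes and Mrc1 were lower in Cbfb+/MYH11 each time, but by different amounts. Mrc1 was at -5.33 in the first pair (arrays 1 and 2) and at -2.36 in the second (arrays 3 and 4). C1qa was at -3.47 and -1.49 in these pairs, C1qc at -2.98 and -1.40, and C1qb (1417063_at) at -3.94 and -1.05. In the second pair all C1q probe sets lay under 6 in both groups, so both sides may be background there. Mrc1 was above 6 on the WT arrays of that pair, at 6.19 and 6.17. In a fit with the pairs as groups, 564 of the 7393 genes past the filter were called lower in the first pair and 476 in the second. The members among them numbered 4 in each pair, C1qa, C1qb, C1qc and Mrc1. These passed the filter through littermates alone, so these counts support nothing. Over all probe sets, 8 member probe sets were called lower in the first pair, 6 in the second, and 6 in both. The 2 called lower in the first pair alone were Adgre1 (-1.30, against -0.49) and Cd68 (-1.02, against 0.46). Cd14 was at -0.16 in the first pair and at 0.69, called higher, in the second (limma, adjusted p = 0.0157). The measured difference between the pairs lay mainly in the WT arrays. From the first pair to the second, the C1q probe sets differed by -0.20 to 0.51 among Cbfb+/MYH11 arrays and by 1.28 to 2.69 among WT arrays (first minus second). All these Cbfb+/MYH11 values lay under 6, where a difference may not show, so the mutant arrays of the pairs are not shown to be alike. With 2 arrays a pair, that fit's p-values rest on very close arrays. With the arrays averaged to 6 putative pools, limma called 0 of the 13 probe sets with the fusion. The adjusted p over genes was then 0.123 to 0.154 for the C1q genes and Mrc1 with the fusion. Of the 7393 genes tested, limma then called 18 with the fusion, and at an unadjusted p under 0.05 there were 2152. In that fit Cbfb-/- and Cbfb+/+ are a single pool each. It holds no spread for the second cross and cannot test the change without Cbfb.

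**Figure D3:**
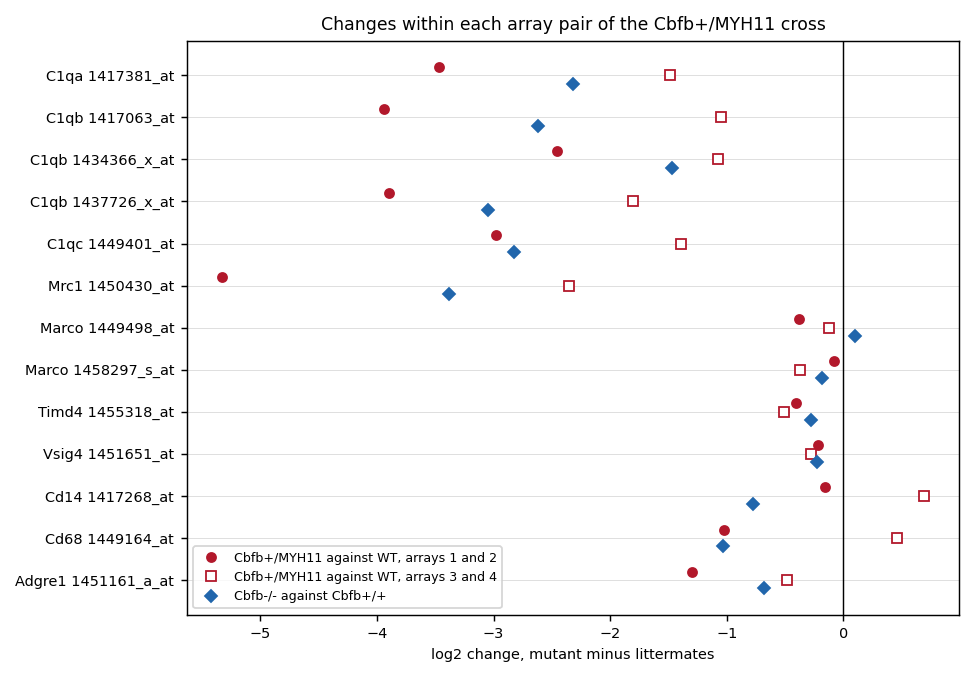
Log2 change of each member probe set (rows) in arrays 1 and 2 (filled circles) and in arrays 3 and 4 (open squares) of the Cbfb+/MYH11 cross, and in Cbfb-/- against Cbfb+/+ (diamonds). For the C1q genes and Mrc1 the Cbfb-/- change lies between those of the pairs; Cd14 and Cd68 lie above 0 in arrays 3 and 4.

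The comparison of both effects asks whether the fusion goes with more or less of a change than loss of Cbfb does. The crosses share no arrays. None of the 13 probe sets was called in the difference (Cbfb+/MYH11 effect minus Cbfb-/- effect; limma over all probe sets), where 9.41% of all probe sets were called. For Mrc1 the difference was -0.46 with a 95% interval of -2.39 to 1.48, for C1qa -0.16 (-1.58 to 1.27), for C1qb (1434366_x_at) -0.29 (-1.37 to 0.78) and for C1qc 0.64 (-0.75 to 2.03). These intervals are wide enough to hold a difference of more than 2-fold in at least 1 direction, so the effects are not shown to be equal. The difference also turned with the array pair of the first cross. For Mrc1 it was -1.94 with the first pair (limma over genes, adjusted p = 2.02e-07) and 1.03 with the second (adjusted p = 3.56e-05), and for C1qa -1.15 and 0.83 (adjusted p = 2.57e-05 and 0.000308). Both genes lay under 6 on every mutant array, where both mutants may be at background. The difference can then follow the littermate level, where Mrc1 averaged 9.32 and 6.18 in the WT pairs and 7.59 in Cbfb+/+. For these genes it cannot decide whether the mutants themselves differ. With the first pair 4 member probe sets were called lower in the difference and with the second 7 were called higher. Over the 7393 genes past the filter, 693 were called lower with the first pair, 2 members among them. With the second pair 1281 were called higher, 4 members among them. For Adgre1 the difference was -0.21 (-0.98 to 0.56) and for Cd68 0.75 (-0.01 to 1.51). For Cd14 it was 1.04 (0.31 to 1.77; adjusted p = 0.069). Over genes past the filter, Cd14 was the only member called in the difference (adjusted p = 0.0441), where 14.9% of genes were called higher.

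Over the 7393 genes that reached a log2 value of 6 on at least 3 arrays, 5 members were tested. Of these, 4 were called lower in Cbfb+/MYH11, where 5.63% of genes were called lower and 30.5% higher, and 5 in Cbfb-/-, where the shares were 6.65% and 19.5%. C1qa, C1qb, C1qc and Mrc1 reached 6 on no mutant array and passed through their littermates alone. The filter itself thus favoured a lower call for them, and these counts support nothing. Of the others, Adgre1 reached 6 on 2 arrays, and Cd68, Marco, Timd4 and Vsig4 on none. In the filtered genes the median change was 0.26 with the fusion and 0.13 without Cbfb, and relative to it Mrc1 was at -4.10 and -3.52 and C1qa at -2.74 and -2.45. With quantile normalization these medians were -0.02 and -0.04, and 1307 genes were called higher and 1043 lower with the fusion (2255 and 416 as deposited) and 1008 and 904 without Cbfb (1443 and 492 as deposited). The member calls in both mutants were as many, 4 and 5. Between wild types, Cbfb+/+ against WT, 0 of the 5 was called (limma over genes, 11.2% of genes called; 0 at an unadjusted p under 0.05 as well). This rested on the WT arrays as a set. Against WT arrays 1 and 2 alone 1 of the 5 was called lower, as were 437 of the 7393 genes. Against WT arrays 3 and 4 alone all 5 were called higher, as were 514 of all genes. Without WT array 2 it was 2 higher, and 445 of all genes. By group mean, Mrc1 was low in Cbfb+/MYH11 (3.91 ± 0.11) and Cbfb-/- (4.20 ± 0.12), and higher in Cbfb+/+ (7.59 ± 0.09) and WT (7.75 ± 1.81), which did not differ beyond their spread. C1qa was low in Cbfb+/MYH11 (3.23 ± 0.22) and Cbfb-/- (3.99 ± 0.08), and higher in Cbfb+/+ (6.31 ± 0.08) and WT (5.71 ± 1.31), which again did not differ beyond their spread. The mutant means lie under 6 and are given no order.

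Genes whose level followed the mean of C1qa, C1qb and C1qc most closely over the 14 arrays, among 7390 genes, were Tyrobp, Itgb3, Ctla2b, Treml1, Mpeg1 and Fars2, with Pearson's r of 0.992 to 0.987. Tyrobp encodes the signalling adaptor DAP12 of myeloid cells, Mpeg1 a pore-forming protein of macrophages, Itgb3 an integrin chain abundant on platelets and Treml1 a receptor of platelet granules. Tyrobp averaged 4.33 ± 0.20 in Cbfb+/MYH11 and 6.67 ± 1.08 in WT, and 5.11 ± 0.21 in Cbfb-/- and 7.46 ± 0.19 in Cbfb+/+. Genes picked for likeness to C1q are low in both mutants by that choice, so their levels are a description. Mrc1 had an r of 0.972 and ranked 12 among these genes, Adgre1 had 0.902, Cd68 0.809, Timd4 0.606, Vsig4 0.557, Marco 0.425 and Cd14 0.402. These values describe arrays that share 4 groups, and the points within a group share pools.

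Of the other genes of the complement system, 27 of 35 listed had a probe set and 8 passed the filter. With the fusion 1 fell and 4 rose (5.63% and 30.5% of all genes), and without Cbfb 2 fell and 2 rose (6.65% and 19.5%). The median change was 0.36 and -0.26, beside 0.26 and 0.13 for all genes, and 1 of the 8, C2, reached 6 on no mutant array. Itgb2, the beta chain of complement receptors 3 and 4, rose by 2.16 in Cbfb+/MYH11 (8.15 ± 0.36, against 5.99 ± 0.53 in WT; adjusted p = 4.36e-05) and fell by 1.35 in Cbfb-/- (5.15 ± 0.62, against 6.49 ± 0.05 in Cbfb+/+; adjusted p = 0.00735). The difference of these effects was called, at 3.51 (adjusted p = 8.04e-05). C3ar1, the receptor of the C3a fragment, was likewise higher with the fusion (0.88, limma over genes, adjusted p = 0.0166). It was at 0.09 in the first array pair and at 1.67 in the second. With quantile normalization it was not called (limma, adjusted p = 0.0751). Without Cbfb it fell by 1.39 (limma over genes, adjusted p = 0.006). Every array of that cross was under 6, so both sides may be background. C1qbp, a mitochondrial protein that also binds C1q, rose in both, by 1.38 and 1.34. With the fusion its rise was 2.05 in the first array pair and 0.70 in the second. Cr1l, a regulator that protects mouse cells from complement, rose with the fusion (8.97 ± 0.03, against 7.95 ± 0.12 in WT; adjusted p = 3.6e-07). The component gene C2 fell by 0.66 with the fusion, and the protease gene Masp1 rose by 0.71 without Cbfb (0.58, short of the fold threshold, with quantile normalization). C1ra and C1s1, whose proteases act with C1q, were below 6 on every array.

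Of the other scavenger and engulfment genes, all 35 had a probe set and 13 passed the filter. With the fusion 4 fell and 1 rose (5.63% and 30.5% of all genes), and without Cbfb 4 fell and 2 rose (6.65% and 19.5%). The medians were -0.39 and -0.14. With quantile normalization 7 fell with the fusion. Gas6, Stab1 and Itgb3, which are 3 of the 4 called lower in each mutant, reached 6 on no mutant array and passed the filter through littermates alone, so these counts support nothing. Gas6, a bridging ligand between dying cells and their receptors, fell in both, to 4.82 ± 0.23 in Cbfb+/MYH11, against 6.22 ± 0.62 in WT (adjusted p = 0.000346), and to 5.36 ± 0.14 in Cbfb-/-, against 6.69 ± 0.20 in Cbfb+/+ (adjusted p = 0.00356). Scarb1, a receptor for high-density lipoprotein, rose by 1.41 with the fusion (adjusted p = 2.29e-07) and was at -0.01 without Cbfb. Cxcl16, a membrane-bound chemokine and scavenger receptor, fell by 0.65 without Cbfb, while the engulfment adaptor Dock1 rose by 1.46 and the lysosomal Scarb2 by 1.01. With the fusion Scarb2 was called lower (-0.65, limma over genes, adjusted p = 0.0098), and its difference of effects was called at -1.66 (adjusted p = 0.00109). Jmjd6 (0.58) and Lrp1 (-0.55) were under the fold threshold with the fusion. Stab1, a scavenger receptor of alternatively activated macrophages, was chosen after its values were seen because its pattern is that of Mrc1. It fell by 1.34 with the fusion (adjusted p = 0.000778) and by 1.19 without Cbfb (adjusted p = 0.00877). Of Cd14's partners among the toll-like receptor genes, 16 of 18 had a probe set and 4 passed the filter, and none was called in either mutant (limma over genes; Irak1 0.52, Nfkbia -0.31, Tnf -0.53 and Ticam1 0.15 with the fusion). Of these, 3 with the fusion and 1 without Cbfb were under an adjusted p of 0.05 but short of 1.5-fold. Nfkbia (-0.68) and Tnf (-0.60) were called lower with the fusion after quantile normalization.

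Macrophage identity genes, listed to check what the members' name says, had 33 probe-set genes of 35, and 21 passed the filter. Of the 33, 11 reached 6 on all Cbfb+/MYH11 arrays and 14 on all WT arrays, and 11 on all Cbfb-/- arrays and 18 on all Cbfb+/+ arrays. With the fusion 10 fell and 3 rose (5.63% and 30.5% of all genes), and without Cbfb 13 fell and 1 rose (6.65% and 19.5%). The medians were -0.32 and -1.31, but 6 of the 21 (Tyrobp, Fcer1g, F13a1, Mpeg1, Maf and Siglec1) reached 6 on no mutant array. Ctss, a lysosomal protease, fell to 4.58 ± 0.13 in Cbfb+/MYH11, against 7.17 ± 0.93 in WT (adjusted p = 3.57e-05), and to 6.34 ± 0.16 in Cbfb-/-, against 8.64 ± 0.15 in Cbfb+/+ (adjusted p = 0.000981). F13a1, a clotting factor chain made by macrophages and megakaryocytes, was at -4.23 with the fusion (adjusted p = 7.25e-05) and at -2.73 without Cbfb (adjusted p = 0.00864), both called lower. Hmox1, which degrades heme, fell by 1.19 with the fusion (adjusted p = 5.51e-06), as did the protease gene Lgmn by 0.99. Without Cbfb, Hmox1 was also called lower (-0.63, limma over genes, adjusted p = 0.00442), and Lgmn was not called (-0.32). Fcer1g and Tyrobp, adaptors of myeloid receptors, fell without Cbfb by 2.03 and 2.35 (adjusted p = 0.00162 and 0.00207). Both were also called lower with the fusion (-1.75 and -2.34, limma over genes, adjusted p = 0.00051 and 0.000248). The iron exporter Slc40a1 was at -0.55 without Cbfb, under the fold threshold.

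Some of these genes went apart in the mutants, and they are named after their values were seen. The difference of effects was called higher for 6 of the 21 and lower for 1, Lgmn. Of all 7393 genes, 14.9% were called higher in the difference and 449 genes lower. The 6 were Csf1r, the receptor of the macrophage growth factor (2.62), Fcgr3, a receptor for antibody (4.23), Spi1, which encodes PU.1 (2.04), and Lyz2, Apoe and Laptm5 (2.37 to 3.04). Spi1 was higher with the fusion in both array pairs, by 0.73 and 2.03, as was Fcgr3, by 0.94 and 3.60. Csf1r was at -1.08 in the first pair, 1.53 in the second and 0.23 over all (adjusted p = 0.672), while it fell by 2.39 without Cbfb (adjusted p = 0.00381). Its other 2 sets changed less, at -0.05 and -0.11 with the fusion and at -1.05 and -0.98 without Cbfb. Lyz2 and Apoe also differed in sign between the pairs. The Laptm5 sets disagreed in direction with the fusion, between -0.99 and 1.27. The C1q genes and Mrc1, whose differences were not called, thus stood beside myeloid genes whose differences were, and both belong to 1 mixed cell population whose makeup was not measured.

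**Figure D4:**
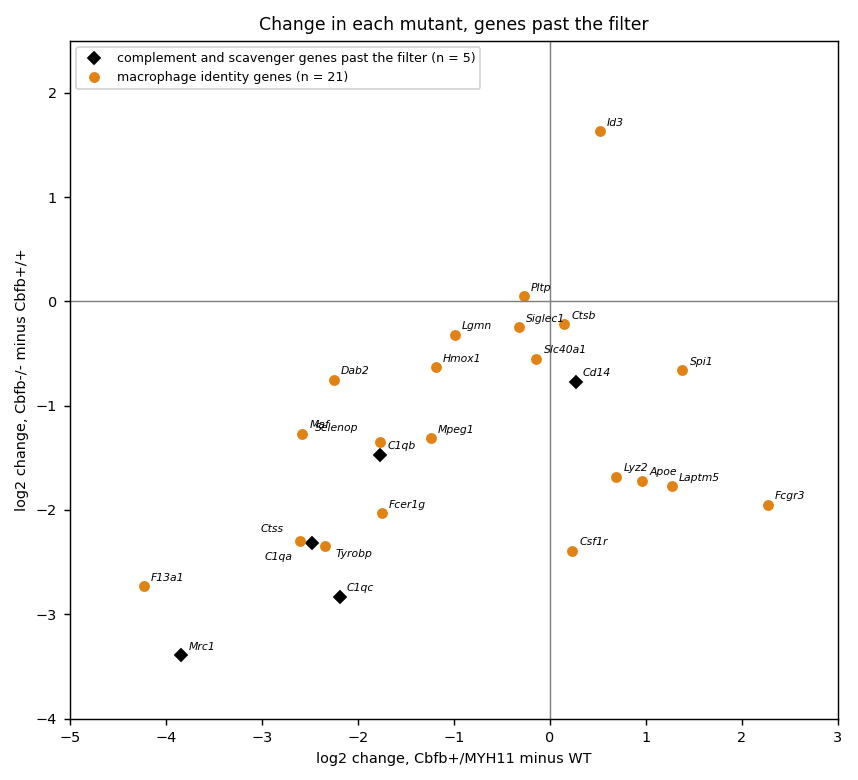
Log2 change in Cbfb+/MYH11 against WT (horizontal) and in Cbfb-/- against Cbfb+/+ (vertical) for the 5 members past the filter (diamonds) and 21 macrophage identity genes (circles). The C1q genes and Mrc1 lie at the lower left with Ctss, Tyrobp and F13a1, while Cd14, Csf1r, Lyz2, Apoe, Laptm5, Spi1 and Fcgr3 lie right of 0 and below it.

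Most platelet markers were lower in both mutants, as the C1q genes and Mrc1 were. Liver markers went lower with the fusion but higher without Cbfb, and endothelial and erythroid markers were mostly not called. Of 11 tested platelet and megakaryocyte markers, 8 fell with the fusion and 11 without Cbfb (medians -2.07 and -1.66), where 5.63% and 6.65% of all genes were called lower. Itga2b (-0.13), Gp5 (-0.03) and Tubb1 (0.46) were not called with the fusion. Unlike for the C1q genes and Mrc1, their difference of effects was called higher (1.53, 1.38 and 3.08). Of the 11, 4 (Itgb3, Gp1bb, Clec1b and Alox12) reached 6 on no mutant array, so the filter itself favoured a lower call for these 4. The mean level of the platelet list was 5.38 to 5.49 on the Cbfb+/MYH11 arrays and 6.47 to 8.06 on the WT arrays. In the other cross it was 5.80 to 5.91 on the Cbfb-/- arrays and 7.64 to 7.76 on the Cbfb+/+ arrays. On WT arrays 1 and 2 it was 7.85 and 8.06 and on WT arrays 3 and 4 it was 6.54 and 6.47, so platelet markers split by array pair as the members did. The chemokine gene Ppbp was at 3.38 ± 0.12 in Cbfb+/MYH11, against 8.18 ± 1.31 in WT. Of 7 tested liver and visceral endoderm markers, 4 fell with the fusion and none rose (5.63% and 30.5% of all genes). Without Cbfb none of these markers fell and 5 rose (6.65% and 19.5% of all genes, limma over genes). Their mean level was 4.76 to 5.53 on the Cbfb+/MYH11 arrays. It was 6.99 and 7.14 on WT arrays 1 and 2 and 5.04 and 5.08 on WT arrays 3 and 4, a split by array pair here too. In the other cross it was 7.07 to 7.33 in Cbfb-/- and 6.02 to 6.08 in Cbfb+/+, opposite in direction to the members. In the array pairs of the first cross, 7 of the 7 liver markers were called lower in the first and 0 lower and 3 higher in the second. Of all 7393 genes, 564 were called lower in the first pair, and 476 lower and 1819 higher in the second. Both tested monocyte and granulocyte markers, Mpo and Ccr2, fell with the fusion, and Mpo fell by 2.15 without Cbfb, where Ccr2 was at -0.19. Mpo reached 6 on no mutant array and passed the filter through littermates alone. Of 3 endothelial markers, 1 rose with the fusion and none was called without Cbfb, and of 11 erythroid markers 4 rose with the fusion and 1 fell without Cbfb. Beside these counts, 30.5% of all genes were called higher and 5.63% lower with the fusion. Without Cbfb the shares were 19.5% and 6.65%. With quantile normalization 2 endothelial markers fell and none rose with the fusion, and 3 erythroid markers fell without Cbfb. The part of these cell types in the members' changes was not tested.

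**Figure D5:**
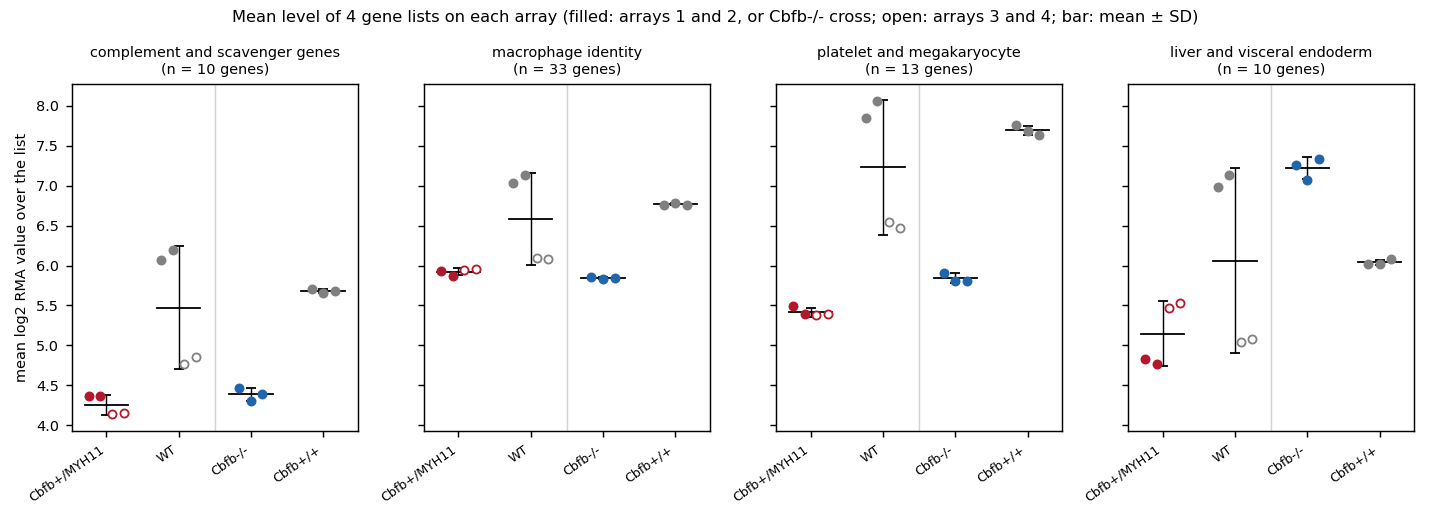
Mean log2 RMA value of the 10 complement and scavenger genes, 33 macrophage identity genes, 13 platelet and megakaryocyte markers and 10 liver and visceral endoderm markers on every array, with mutants left of their littermates, array pairs as filled and open points, and means ± SD as bars. The first 3 lists are lower on the mutant arrays. Among WT arrays, every list shown is highest on arrays 1 and 2. The liver list is higher in Cbfb-/- than in Cbfb+/+.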

How the data were processed

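RNA from pooled embryonic blood was measured on 14 arrays. The authors made the deposited log2 values with RMA in Affymetrix Expression Console, per the submitters' processing notes, with versions not given in the sources used here. No further normalization was applied to the 45101 probe sets. Array medians lay between 4.27 and 4.46, and the number of arrays limits the precision. No measure of background per probe set was at hand, so a log2 value of 6 stood in for it.

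Linear models (limma 3.58.1, R 4.3.3; lmFit, then eBayes) held the 4 groups and all 14 arrays without further terms, and p-values were adjusted by Benjamini and Hochberg. One fit used all 34958 probe sets with 1 symbol. The other used 1 probe set per gene (highest mean over all arrays), for the 7393 of 18194 genes that reached a log2 value of 6 on at least 3 arrays. Calls needed both a 1.5-fold change and an adjusted p below 0.05. The fits were checked on simulated data. Named beside the members are up to 4 tested genes per list and mutant with the smallest adjusted p, and the 6 genes most correlated with C1q. Members and lists were chosen with earlier results of these data known.

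The replicate numbers in the labels were checked as pairs by correlating deviations from the group mean. Same-numbered arrays gave 0.521, 0.407, 0.499 and 0.499 in the Cbfb+/MYH11 cross, where number 1 also went with 2 and 3 with 4, and 0.034, 0.011 and 0.017 in the Cbfb-/- cross. A fit with the number as a block, other scalings, filters and probe set rules, array pairs and the leaving out of each array were run as alternatives.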

Additional observations from a re-analysis of the deposited data

Results flagged for a closer look

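Cd14 was the member whose changes in the mutants differed by a test of the difference itself. The Cbfb+/MYH11 effect (0.27) exceeded the Cbfb-/- effect (-0.77) by 1.04 on the log2 scale (limma over genes past the filter, adjusted p = 0.0441; 0.069 over all probe sets). Cd14 was at 6.21, 6.40, 6.26 and 6.21 on the Cbfb+/MYH11 arrays. In WT it split by array pair, at 6.58 and 6.34 on arrays 1 and 2 and at 5.38 and 5.69 on arrays 3 and 4. The difference was 0.62 with arrays 1 and 2 of that cross and 1.47 with arrays 3 and 4. It lost its call in 11 of the 14 fits without 1 array.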

How the results depend on the processing

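Without a filter 7 and 7 probe sets fell (fusion, then without Cbfb); the replicate block gave 7 and 9, and 1 higher in the difference, as did centred arrays and a filter at 6 that was chosen after seeing the data. Leaving out single arrays gave 0 to 1 there. With the filter at 7, 3 probe sets and 2 members fell in each mutant and 0 members were higher in the difference, as without a filter and with quantile normalization. In the fits without 1 array the members higher in the difference numbered 0 to 1, and those higher in Cbfb+/+ against WT 0 to 2 (2 without WT array 2). Arrays 1 and 2 alone gave 2 members and 4 probe sets lower in the difference and 0 members higher, with 1 member lower in Cbfb+/+ against WT. Arrays 3 and 4 alone gave 1 member and 1 probe set higher with the fusion, 4 members and 7 probe sets higher in the difference and 5 members higher in Cbfb+/+ against WT. With 6 putative pools 0 members, 0 probe sets and no gene of any list were called with the fusion (list counts under other settings were added after seeing the data). That fit has a single pool for each genotype of the second cross, so it cannot test the comparisons that use that cross.

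Over all genes the mean of probe sets called 1701 (2671 otherwise) with the fusion and 428 (831) between wild types. The filter at 7 called 1029 (1548) in the difference. Arrays 1 and 2 called 2423 there and 1489 between wild types, and arrays 3 and 4 called 2377 and 1968. Putative pools called 18 with the fusion, the only comparison they can test.

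Changes that turned sign were those of Cd14 (-0.16, arrays 1 and 2) and Cd68 (0.46, arrays 3 and 4) with the fusion. In the difference they were C1qc (-0.15) with arrays 1 and 2, C1qa (0.83), C1qb (0.40), Mrc1 (1.03) and Adgre1 (0.19) with arrays 3 and 4, and C1qb (0.01) with the mean of probe sets. Without 1 array the difference ranged over -0.54 to 0.24 for C1qa, -0.53 to 0.15 for C1qb and -0.98 to 0.10 for Mrc1. The cause was not tested. The falls of C1qa, C1qb, C1qc and Mrc1 kept their direction under every alternative run, and their calls wherever they were tested except with the putative pools (C1qa and C1qb did not pass the filter at 7).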
